A study of Rattus norvegicus with 18 samples.

Results

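The 38 genes described here encode the synaptic vesicle and its release machinery. They were taken from a named list of vesicle, fusion, active zone and vesicle recycling genes. No cutoff on a measured value was used, but earlier results of these data were known when the genes were chosen. Each was represented by 1 probe set, the one with the highest mean log2 level over all arrays among the probe sets that carry exactly 1 gene symbol. All 38 were measured, out of 14217 named genes on the array. Rat hippocampal neurons were grown in dissociated culture, and total RNA was hybridised to 18 Affymetrix arrays. A lentivirus was added on day 3 in vitro, and 4-hydroxytamoxifen (4OHT), a ligand of the estrogen receptor, on day 10. The test virus carried MEF2-VP16-ER, the transcription factor MEF2 joined to the VP16 activation domain of a herpes virus and to the ligand-binding part of the estrogen receptor (ER), so that 4OHT switches the protein on. The control virus carried MEF2deltaDBD-VP16-ER, which lacks the DNA-binding domain and otherwise has the same parts. The 6 groups were control neurons after 0, 1 and 2.5 h of 4OHT and MEF2-VP16-ER neurons after 0, 1 and 2.5 h, with 3 biological replicates in each, and every group had received a virus and the VP16 and ER parts. MEF2-VP16-ER is an activator fused to a viral domain and not the neurons' own MEF2, the sources used here do not give the promoter that drove it, and the RNA came from whole cultures. They also do not give the strain, age or number of animals behind a replicate, so the tests measure the spread between these arrays.

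A nerve terminal stores transmitter in synaptic vesicles and releases it by a cycle. Transporters fill the vesicle, Rab3 proteins and active zone scaffolds bring it to the release site, and priming factors ready the SNARE proteins of vesicle and plasma membrane to zip together. Synaptotagmins sense the calcium that an action potential lets in and trigger fusion, complexins hold and then assist the SNARE complex, NSF and its adaptors take the used complex apart, and clathrin adaptors, amphiphysin, dynamin and synaptojanin retrieve the membrane. MEF2 factors are known in hippocampal neurons as activity-regulated transcription factors that restrain the number of excitatory synapses. The comparisons here asked whether genes of the release machinery were among those that responded within hours of MEF2 activation.

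RefSeq promoter sequences, on the rat build GRCr8, were matched by symbol to 31 of the 38 genes, as 32 promoters because Unc13b had 2. The 250 bases before the annotated start of each, which lie outside the transcribed region, were searched on both strands. The MEF2 site was found in 0 of 32, against 991 of 33469 promoters of all genes (2.96%). The cyclic AMP response element (CRE), TGACGTCA, was found in 3 of 32 (9.38%) against 1.59% of all. Its core, TGACG, which lies within the full site as well, was found in 12 of 32 (37.5%) against 18.2% of all. A match is a description of letters and not a site of binding, and no match says only that these letters are not in the window. The upstream sequences of Syn1, Vamp1 and Napa, which hold the full CRE at positions -190, -71 and -59 (first base of the match, with -1 next to the start), are shown 5′ to 3′ with the CRE in capitals. That of Slc17a6, the gene with the smallest adjusted p for replicate number among the 38, is shown with the CRE core at -235 in capitals.

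Syn1, GRCr8, chrX:3725495-3725744, plus strand: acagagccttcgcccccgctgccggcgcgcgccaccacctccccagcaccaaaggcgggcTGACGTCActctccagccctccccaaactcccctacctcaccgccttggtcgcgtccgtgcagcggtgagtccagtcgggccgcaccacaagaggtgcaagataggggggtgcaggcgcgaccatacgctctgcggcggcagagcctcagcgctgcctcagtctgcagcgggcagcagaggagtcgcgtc

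Vamp1, GRCr8, chr4:159698644-159698893, plus strand: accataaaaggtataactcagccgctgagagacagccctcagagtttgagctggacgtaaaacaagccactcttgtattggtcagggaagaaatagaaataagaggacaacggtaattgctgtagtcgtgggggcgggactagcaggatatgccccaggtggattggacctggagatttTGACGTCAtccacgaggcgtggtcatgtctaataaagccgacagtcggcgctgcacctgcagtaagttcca

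Napa, GRCr8, chr1:85915185-85915434, plus strand: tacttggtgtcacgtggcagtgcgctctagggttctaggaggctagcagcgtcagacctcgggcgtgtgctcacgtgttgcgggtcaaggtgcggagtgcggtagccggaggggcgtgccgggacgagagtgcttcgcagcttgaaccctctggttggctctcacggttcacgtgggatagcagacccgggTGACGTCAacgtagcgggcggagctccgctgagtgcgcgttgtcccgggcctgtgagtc

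Slc17a6, GRCr8, chr1:110348197-110348446, plus strand: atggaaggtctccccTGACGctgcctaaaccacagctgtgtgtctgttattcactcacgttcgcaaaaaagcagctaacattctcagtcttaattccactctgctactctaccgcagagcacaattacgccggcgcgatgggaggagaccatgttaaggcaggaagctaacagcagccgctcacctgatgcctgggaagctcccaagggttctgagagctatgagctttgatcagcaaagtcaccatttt

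The values are intensities of probe sets on a linear scale, and the median intensity of an array lay between 190.4 and 197.0. Differences are of log2(intensity + 16), where 16 keeps dim values from dominating and makes changes of dim genes look smaller than they were. The words rose, fell and differed are used of a gene only where its limma p, adjusted over all 31042 probe sets by the Benjamini-Hochberg method, was under 0.05, which is also what called means. Induction stands for how much more a gene moved from its 0 h level with MEF2-VP16-ER than it did with the control construct. In all errors of differences ± is the standard error (SE), from the fit without a term for replicate number. In induction at 2.5 h the median SE of the 38 genes was 0.148 in that fit and 0.0898 with the term. Among genes outside the release machinery, Hs3st1, a heparan sulfate enzyme gene, rose by 2.40 ± 0.16 log2 units in induction at 2.5 h (adjusted p = 4.01e-06), and Nr4a1, an activity-regulated nuclear receptor gene, rose by 1.11 ± 0.19 (adjusted p = 0.0299). The 10 neuronal markers, such as Map2 and Stmn2, had a summed intensity of 67880 to 79570 over the 18 arrays. The cultures also gave signal for astrocyte markers, whose 9 measured genes summed to 41670 to 59350 and included Gfap at 3962 to 13340.

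None of the 38 genes rose or fell in induction at 2.5 h: 0 of 38 were called, and every adjusted p was 1. Over all probe sets 0.177% were called, so a count of 0 among 38 is near the background. With the replicate number as a block in the model the share of all probe sets called was 0.937%, and 0 of the 38 were among them, the smallest adjusted p being 0.433 (Cplx2). At an unadjusted p under 0.05 there were 0 of 38, against 4.78% of all probe sets. The estimates ran from -0.25 (Syt1) to 0.46 (Cplx2) log2 units, 16 were above 0 and 22 below, and their median was -0.02 against 0.00 for all probe sets. The 95% confidence interval of 32 genes lay within a 1.5-fold change in either direction, and that of 37 within 2-fold, all but Cplx2. The 6 genes whose interval reached past 1.5-fold were Syn3, Syt1, Cplx2, Bsn, Sv2b and Slc17a6. With the block 36 intervals lay within 1.5-fold, and over all probe sets 84.8% did so without it. For the chosen probe sets of 32 genes the data thus bound the induction at 2.5 h to less than 1.5-fold on the log2(intensity + 16) scale. This bound is for each gene taken alone at 95% confidence and not for the 32 genes jointly. The interval of Cplx2 reached past 2-fold. Further probe sets of the same genes were not all bounded so closely, such as those of Stx1a (-0.34 ± 0.19) and Syt4 (0.20 ± 0.38). For dim genes the added 16 makes the bound on the true fold looser.

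In induction at 1 h likewise 0 of 38 genes were called, against 0.00322% of all probe sets. Unadjusted p was under 0.05 for 2 genes, against 4.7% of all probe sets: Syt5 at -0.25 ± 0.11 and Snap91 at -0.21 ± 0.08 in log2 units, both with an adjusted p of 0.996. The median of the 38 was -0.04, against -0.02 for all probe sets, and after quantile normalization it was 0.01, so it has no settled sign. Intervals of 32 genes lay within 1.5-fold and of 36 within 2-fold, all but Syt1 and Cplx2. Both inductions use the same 0 h arrays, so their values are given side by side and not as independent evidence.

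**Figure D1:**
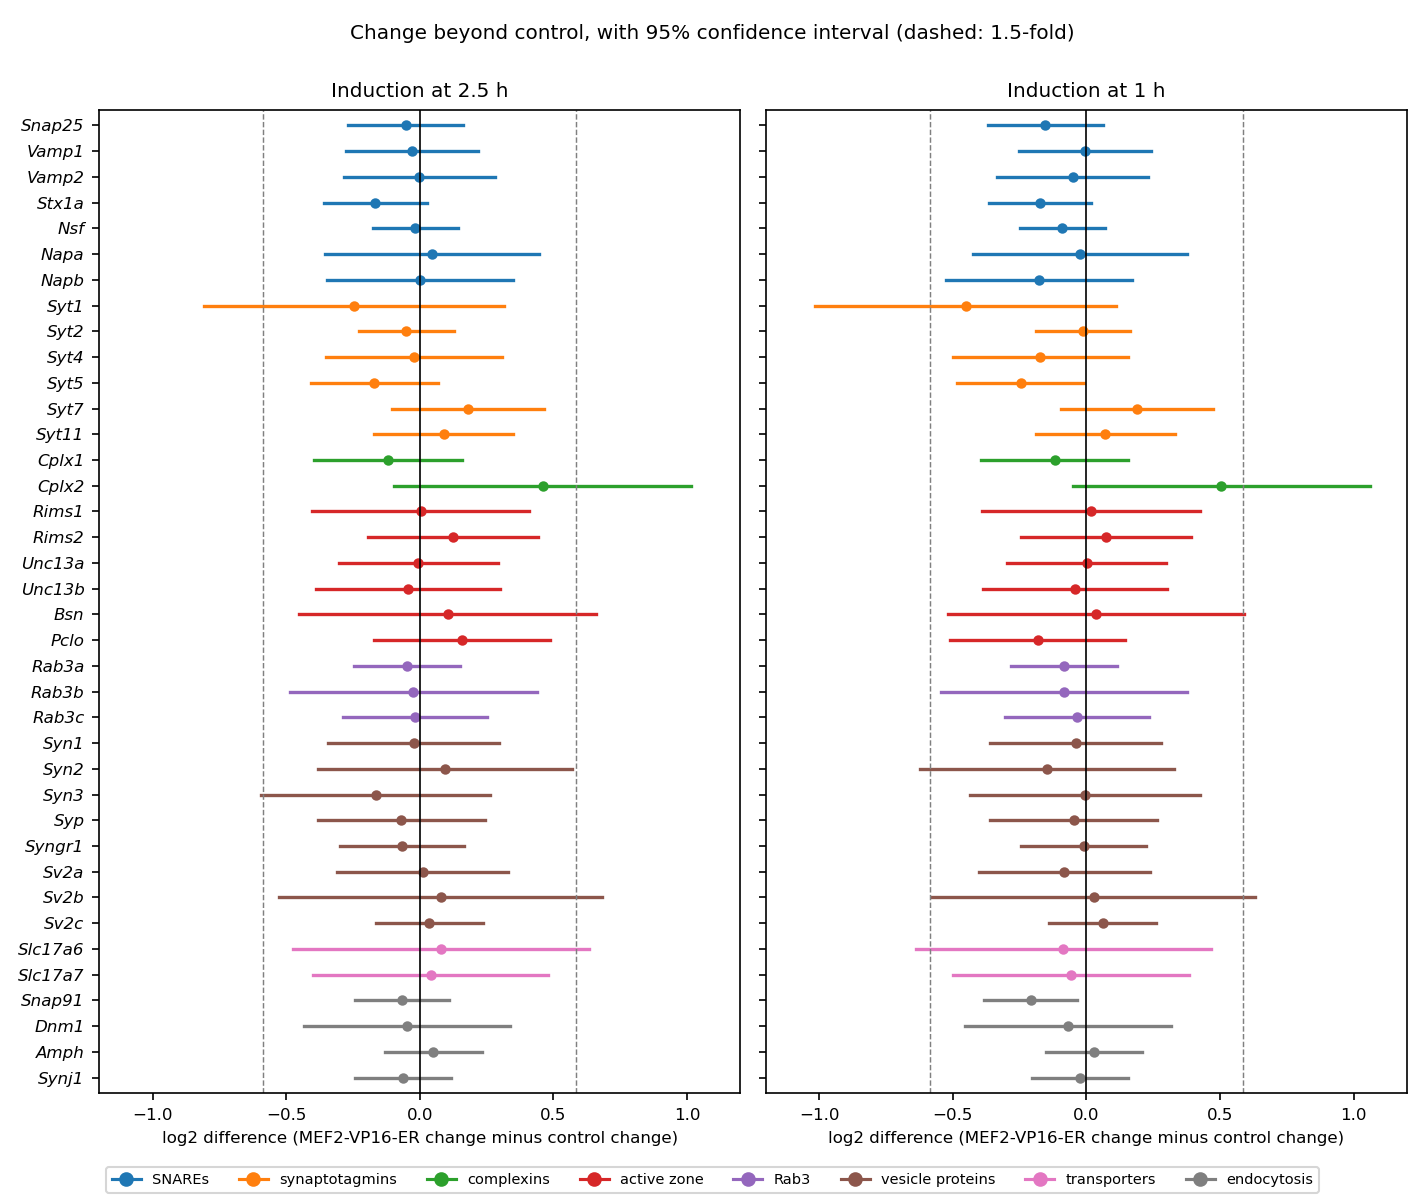
Induction of each of the 38 genes, in log2 units, as a point with its 95% confidence interval, at 2.5 h (left) and 1 h (right); colours mark the roles and dashed lines a change of 1.5-fold. At 2.5 h all 38 intervals include 0 and 32 lie between the dashed lines; at 1 h the intervals of Syt5 and Snap91 miss 0 before adjustment.

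The SNARE proteins, which pull vesicle and plasma membrane together, gave 0 calls among their 7 genes. In the values that follow, each set of 3 is in the order of replicates 1, 2 and 3. Snap25 encodes a SNARE protein of the plasma membrane. In control neurons Snap25 read 9259, 9319 and 8645 at 0 h, 9584, 9196 and 8784 at 1 h and 9350, 9115 and 8466 at 2.5 h. With MEF2-VP16-ER Snap25 read 10330, 9914 and 9086 at 0 h, 9221, 9089 and 8362 at 1 h and 10170, 9289 and 8529 at 2.5 h. The groups overlapped at every time, replicate 3 was the lowest array of each group, and the induction at 2.5 h was -0.05 ± 0.10 (95% interval -0.27 to 0.16). Vamp2, synaptobrevin, is the main SNARE protein of the vesicle. In control neurons Vamp2 read 4764, 4822 and 4409 at 0 h, 5178, 5107 and 4603 at 1 h and 4750, 4959 and 4188 at 2.5 h. With MEF2-VP16-ER Vamp2 read 4790, 4984 and 4523 at 0 h, 5711, 4811 and 4245 at 1 h and 4922, 4780 and 4460 at 2.5 h. Replicate 1 of MEF2-VP16-ER at 1 h stood above the rest, and the induction was -0.0013 ± 0.13 at 2.5 h and -0.05 ± 0.13 at 1 h. Stx1a encodes syntaxin, the plasma membrane partner of Snap25. In control neurons Stx1a read 1958, 2031 and 1886 at 0 h, 1935, 1988 and 2022 at 1 h and 2004, 2042 and 2065 at 2.5 h. With MEF2-VP16-ER Stx1a read 1929, 2377 and 2160 at 0 h, 1933, 1860 and 1985 at 1 h and 1905, 2072 and 1994 at 2.5 h. The highest arrays were replicates 2 and 3 of MEF2-VP16-ER at 0 h, and the inductions were -0.17 ± 0.09 at 2.5 h and -0.17 ± 0.09 at 1 h, neither called. Its second probe set gave -0.34 at 2.5 h, the lowest value among the further probe sets of the 38 genes, and was not called either.

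The other SNARE genes are given by their range over the 18 arrays. Vamp1, the related vesicle SNARE, read 203 to 316 (median 259), with an induction of -0.03 ± 0.12 at 2.5 h. Nsf, the ATPase that takes SNARE complexes apart, read 2865 to 3360 (median 3159) and had an interval of -0.18 to 0.14 around an induction of -0.02. Napa and Napb, the adaptors that bring NSF to the complex, read 2480 to 3365 (median 2792) and 2693 to 3699 (median 3346), with inductions of 0.05 ± 0.19 and 0.0023 ± 0.16. In induction at 1 h the estimates of the 7 SNARE genes ran from -0.18 (Napb) to -0.0042 (Vamp1).

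Among the calcium sensors, Syt1, the synaptotagmin that triggers fast release, had the widest spread of the 38 genes, and none of the 6 sensors was called. In control neurons Syt1 read 658, 665 and 562 at 0 h, 606, 630.0 and 675 at 1 h and 742, 567 and 533 at 2.5 h. With MEF2-VP16-ER Syt1 read 954, 680.0 and 729.7 at 0 h, 425, 758 and 587 at 1 h and 758, 630.5 and 534 at 2.5 h. The highest and the lowest array were both replicate 1 of MEF2-VP16-ER, at 0 h and at 1 h, a ratio of 2.25. The induction was -0.25 ± 0.26 at 2.5 h (95% interval -0.81 to 0.31) and -0.45 ± 0.26 at 1 h (-1.01 to 0.11). The constructs compared at 2.5 h alone, where the 0 h arrays are not subtracted, gave an estimate of 0.06. Syt5, a further calcium-binding isoform, varied less. In control neurons Syt5 read 2719, 2637 and 2583 at 0 h, 2696, 2931 and 2644 at 1 h and 2652, 2809 and 2374 at 2.5 h. With MEF2-VP16-ER Syt5 read 2738, 3050 and 2851 at 0 h, 2705, 2547 and 2328 at 1 h and 2663, 2628 and 2278 at 2.5 h. All 3 MEF2-VP16-ER arrays at 2.5 h, and all 3 at 1 h, lay below the 3 at 0 h. The differences were -0.19 ± 0.08 (limma adjusted p = 0.629) and -0.19 ± 0.08 (adjusted p = 1), and neither was called. In control neurons Syt5 groups overlapped, and the induction was -0.17 ± 0.11 at 2.5 h.

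Syt4, an isoform known from vesicles that carry neuropeptides and growth factors, was among the brighter genes. In control neurons Syt4 read 8685, 8554 and 7415 at 0 h, 9148, 9521 and 8214 at 1 h and 9273, 8181 and 7098 at 2.5 h. With MEF2-VP16-ER Syt4 read 8956, 9286 and 8060 at 0 h, 9180, 9037 and 7335 at 1 h and 8693, 9108 and 7915 at 2.5 h. Replicate 3 was the lowest array in each of the 6 groups, and the induction was -0.02 ± 0.15 at 2.5 h. Syt7, a slower sensor of high calcium affinity, was lower with MEF2-VP16-ER on all 3 arrays before 4OHT, without a call. In control neurons Syt7 read 152, 170.2 and 158 at 0 h, 149, 160.4 and 167 at 1 h and 139.7, 172 and 142 at 2.5 h. With MEF2-VP16-ER Syt7 read 137, 136 and 129 at 0 h, 128, 172 and 164 at 1 h and 149, 151 and 134 at 2.5 h. The 0 h difference was -0.23 ± 0.09 (limma adjusted p = 0.522), and the inductions were 0.18 ± 0.13 at 2.5 h and 0.19 ± 0.13 at 1 h. With the constructs compared at 2.5 h or 1 h alone the estimates were -0.05 and -0.04, and its 2 further probe sets gave -0.08 and -0.01 in induction at 2.5 h. Syt2, a fast sensor of other neurons, was dim, at 55.5 to 67.5 (median 59.6), with an induction of -0.05 ± 0.08. Syt11, an isoform that does not bind calcium, read 284 to 397 (median 347), with an induction of 0.09 ± 0.12.

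Complexins bind the assembled SNARE complex, and Cplx2 had the largest estimate of the 38 genes in both inductions. In control neurons Cplx2 read 396, 394 and 382 at 0 h, 378, 386 and 378 at 1 h and 314, 279 and 282 at 2.5 h. With MEF2-VP16-ER Cplx2 read 426, 309 and 279 at 0 h, 551, 477 and 386 at 1 h and 479.9, 344 and 249.7 at 2.5 h. The control arrays at 2.5 h lay below all 3 control arrays at 0 h, with a difference of -0.41 ± 0.18, while the MEF2-VP16-ER arrays at 2.5 h overlapped those at 0 h and gave a difference of 0.05 ± 0.18. The induction at 2.5 h was therefore 0.46 ± 0.26 (fold 1.38, 95% interval -0.10 to 1.02 log2 units, limma adjusted p = 1), and most of it lay in the control arrays. With the block the adjusted p was 0.433, the lowest over the alternatives tried. At 1 h the induction was 0.51 ± 0.26 (interval -0.05 to 1.06), and there it lay in the MEF2-VP16-ER arrays, 0.47 ± 0.18 against -0.04 ± 0.18 in control neurons. Among the MEF2-VP16-ER arrays replicate 1 was the highest and replicate 3 the lowest at each time. Without replicate 1 of MEF2-VP16-ER at 2.5 h the induction at 2.5 h was 0.23, and without its replicate 3 it was 0.68. Cplx1, the other complexin, read 2937 to 3897 (median 3501), with inductions of -0.12 ± 0.13 at 2.5 h and -0.12 ± 0.13 at 1 h.

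Of the active zone and priming genes 0 of 6 were called, and all but Bsn had mean levels below the median of all probe sets. Rims2 encodes a scaffold that links Rab3 on the vesicle to the release site. In control neurons Rims2 read 128, 130.3 and 134 at 0 h, 132, 124 and 135 at 1 h and 128, 117 and 115 at 2.5 h. With MEF2-VP16-ER Rims2 read 138, 136 and 124 at 0 h, 141, 145 and 133 at 1 h and 172, 127 and 108 at 2.5 h. Replicates 1 and 3 of MEF2-VP16-ER at 2.5 h were the highest and the lowest of the 18 arrays, and the induction of 0.12 ± 0.15 became -0.04 without replicate 1 of that group. Pclo encodes piccolo, a very large scaffold of the active zone. In control neurons Pclo read 111, 102 and 97.3 at 0 h, 97.0, 103 and 117 at 1 h and 97.8, 96.6 and 80.5 at 2.5 h. With MEF2-VP16-ER Pclo read 112, 105 and 111 at 0 h, 90.1, 106 and 94.1 at 1 h and 139, 93.3 and 102 at 2.5 h. Replicate 1 of MEF2-VP16-ER at 2.5 h again stood above all others, and the induction of 0.16 ± 0.15 was 0.01 without it. Bsn, bassoon, the partner scaffold of piccolo, read 1984 to 3075 (median 2647), with an induction of 0.10 ± 0.26 and an interval of -0.45 to 0.66. Rims1, a paralogue of Rims2, read 147 to 242 (median 180.2), and the priming factors Unc13a and Unc13b read 71.2 to 101 (median 82.3) and 77.6 to 126 (median 110.2). Their inductions were 0.0031 ± 0.19, -0.01 ± 0.14 and -0.04 ± 0.16.

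The Rab3 GTPases ride on the vesicle and help it dock, and 0 of 3 were called. Rab3a read 6460 to 7694 (median 6940), Rab3b read 699.7 to 1175 (median 931) and Rab3c read 139 to 187 (median 163). Their inductions at 2.5 h were -0.05 ± 0.09, -0.02 ± 0.22 and -0.02 ± 0.13. The spread of Rab3b was the largest of them, with the lowest array in control neurons at 0 h, replicate 3, and the highest in MEF2-VP16-ER neurons at 1 h, replicate 1.

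Synapsins tie vesicles into the reserve cluster, and of the 8 vesicle phosphoprotein and membrane protein genes 0 were called. Syn1 encodes synapsin I, which coats the vesicle. In control neurons Syn1 read 3153, 3499 and 3016 at 0 h, 3415, 3315 and 2750 at 1 h and 3109, 3671 and 2893 at 2.5 h. With MEF2-VP16-ER Syn1 read 3164, 3374 and 2750 at 0 h, 3007, 3085 and 2727 at 1 h and 3129, 3176 and 2796 at 2.5 h. Replicate 3 was the lowest array of every group, the constructs overlapped at each time, and the induction at 2.5 h was -0.02 ± 0.15 (interval -0.34 to 0.30). Syp encodes synaptophysin, an abundant protein of the vesicle membrane. In control neurons Syp read 3454, 3560 and 3170 at 0 h, 3453, 3461 and 3284 at 1 h and 3374, 3309 and 2970 at 2.5 h. With MEF2-VP16-ER Syp read 3320, 4100 and 3336 at 0 h, 3728, 3694 and 3011 at 1 h and 3432, 3456 and 2816 at 2.5 h. The highest array was replicate 2 of MEF2-VP16-ER at 0 h, and the induction was -0.07 ± 0.15. Syn3, a synapsin of developing neurons, was dim. In control neurons Syn3 read 78.2, 90.8 and 83.0 at 0 h, 80.7, 80.7 and 74.2 at 1 h and 78.4, 129 and 73.3 at 2.5 h. With MEF2-VP16-ER Syn3 read 78.2, 70.4 and 95.7 at 0 h, 68.5, 75.4 and 82.5 at 1 h and 73.7, 82.9 and 73.3 at 2.5 h. Replicate 2 of control neurons at 2.5 h stood above every other array, and without it the induction of -0.17 ± 0.20 was 0.06.

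Syn2, a further synapsin, read 645 to 996 (median 871), with an induction of 0.09 ± 0.22, and Syngr1, synaptogyrin, read 224 to 297 (median 245), with -0.07 ± 0.11. The Sv2 genes encode vesicle glycoproteins that are needed for normal release. Sv2a read 1429 to 2079 (median 1687), Sv2b read 4415 to 7342 (median 5408) and Sv2c, the dimmest of the 38, read 44.9 to 60.1. Their inductions were 0.01 ± 0.15, 0.08 ± 0.28 and 0.04 ± 0.09. Whether Sv2c stood above background was not tested.

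Slc17a7 and Slc17a6 encode the transporters that load glutamate into vesicles, and neither was called. In control neurons Slc17a7 read 1535, 1502 and 1233 at 0 h, 1449, 1479 and 1242 at 1 h and 1450, 1136 and 1211 at 2.5 h. With MEF2-VP16-ER Slc17a7 read 1580, 1591 and 1148 at 0 h, 1464, 1440 and 1135 at 1 h and 1390, 1411 and 1125 at 2.5 h. Replicate 3 was lowest in 5 of the 6 groups, and the induction was 0.04 ± 0.21 at 2.5 h. In control neurons Slc17a6 read 1610, 1489 and 1128 at 0 h, 1728, 1385 and 1250 at 1 h and 1569, 1280 and 1105 at 2.5 h. With MEF2-VP16-ER Slc17a6 read 1538, 1336 and 1178 at 0 h, 1536, 1365 and 1065 at 1 h and 1557, 1382 and 1093 at 2.5 h. Replicate 1 was the highest and replicate 3 the lowest array in all 6 groups. The induction was 0.08 ± 0.26 (interval -0.47 to 0.63) without the block, a fit that leaves these replicate differences in the error. The endocytosis genes, which retrieve the vesicle after fusion, were also without a call, 0 of 4. Dnm1, dynamin, the GTPase that cuts the vesicle neck, read 2723 to 3820 (median 3457), with an induction of -0.05 ± 0.18. Amph, which brings dynamin to the neck, read 513 to 618 (median 574), with 0.05 ± 0.08, and Synj1, the lipid phosphatase that helps shed the coat, read 2245 to 2612 (median 2430), with -0.06 ± 0.08. Synj1 had the narrowest range of the 38 genes, a highest array 1.16 times the lowest. Snap91, a clathrin assembly protein, read 8003 to 9929 (median 8694), with -0.07 ± 0.08 at 2.5 h and -0.21 ± 0.08 at 1 h.

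**Figure D2:**
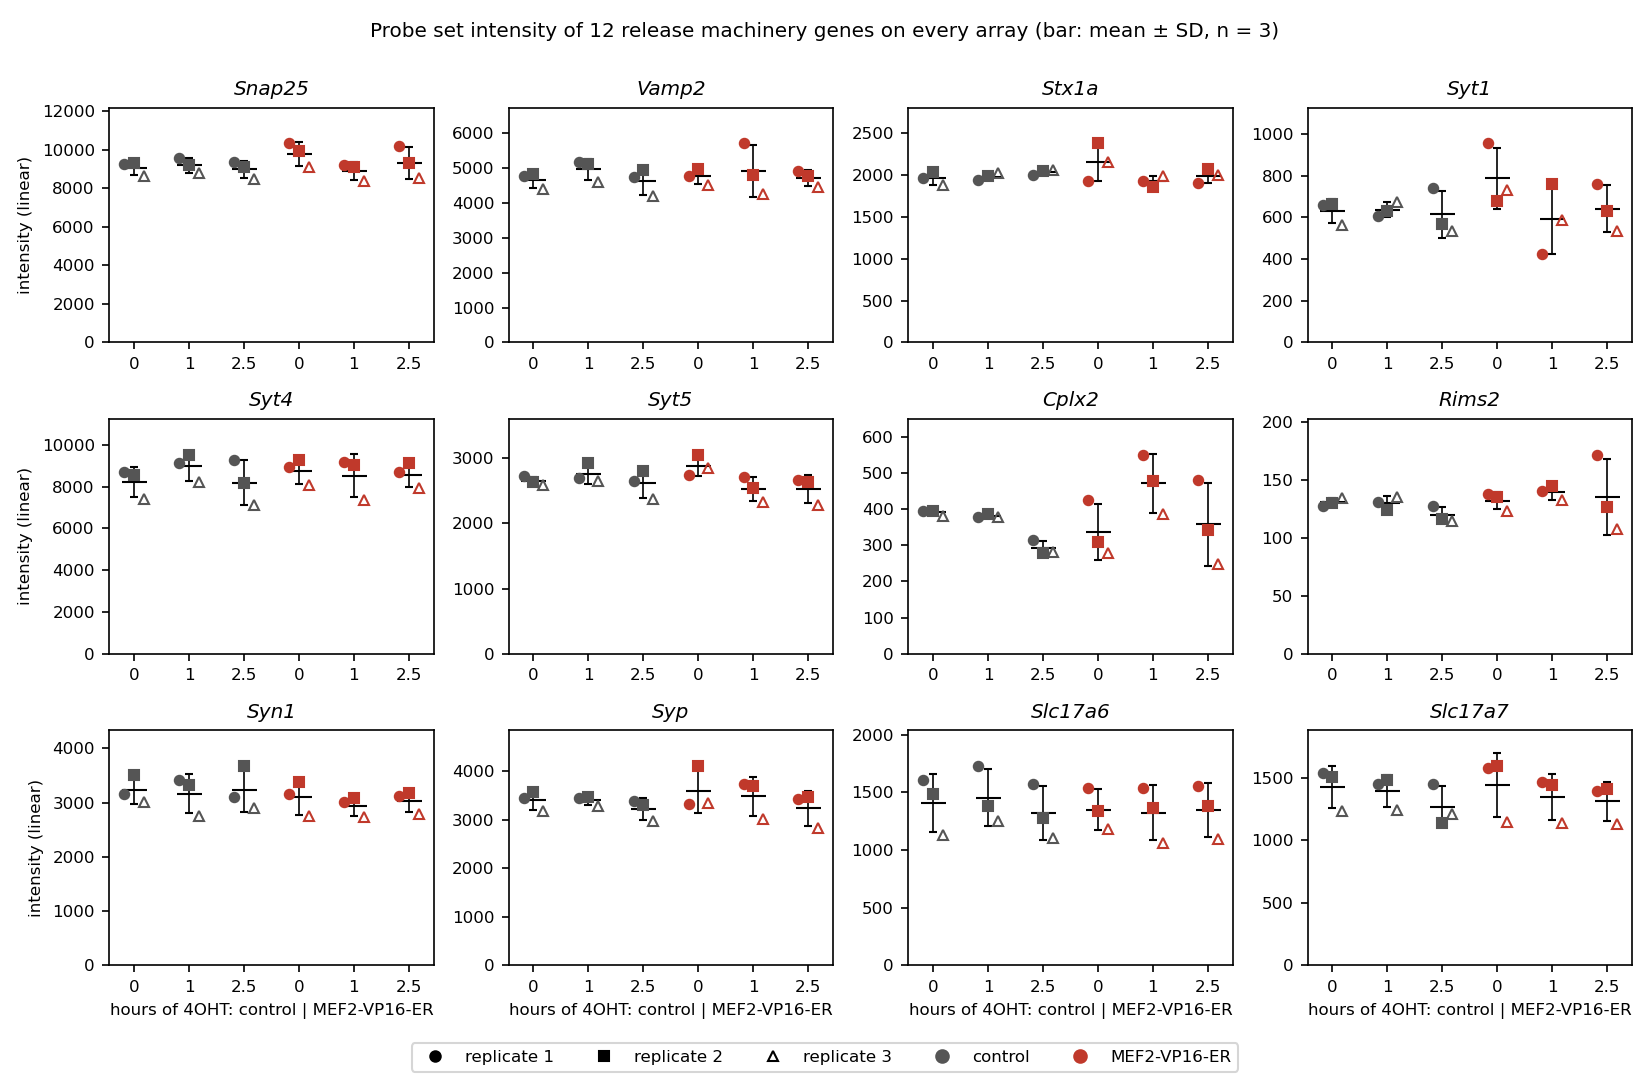
Intensity on a linear scale of 12 genes on every array, by construct (grey control, red MEF2-VP16-ER) and hours of 4OHT, with markers for the replicate number and bars for the mean ± SD (n = 3). The 12 were chosen after their values were seen and include no Rab3 or endocytosis gene. Replicate 3 (open triangles) is the lowest array of all 6 groups for Snap25, Vamp2, Syt4, Syn1 and Slc17a6.

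Within MEF2-VP16-ER neurons 0 of 38 genes were called after 2.5 h of 4OHT, where 0.789% of all probe sets were called, or 2.33% with the block. At unadjusted p under 0.05 there was 1 gene, Syt5, against 6.18% of all probe sets, and its groups were the only ones of the 38 that did not overlap, against 11.3% of all. After 1 h 0 of 38 were called, against 0.0354% of all. There were 5 genes with an unadjusted p under 0.05, against 4.17% of all probe sets: Cplx2 at 0.47 ± 0.18, Syt1 at -0.43 ± 0.19, Syt5 at -0.19 ± 0.08, Stx1a at -0.16 ± 0.06 and Snap91 at -0.15 ± 0.06. The adjusted p of each was 1. These 5 are 13.2% of the 38; after quantile normalization there was 1, without replicate 2 of MEF2-VP16-ER at 0 h also 1, and with the block 8, or 21.1% against 8.38% of all probe sets. Groups did not overlap for Syt5 and Snap91, both lower at 1 h, which is 2 of 38 against 9.84% of all probe sets. The 95% intervals of 37 genes at 2.5 h and 36 at 1 h lay within 1.5-fold, the others being Syt1 at both times and Cplx2 at 1 h. The summed intensity of the 7 excitatory neuron markers was 8705 to 11360 in MEF2-VP16-ER neurons at 2.5 h and 13470 to 15390 at 0 h, where Neurod2 and Neurod6 fell (adjusted p = 0.00617 and 0.0158). In the same arrays Slc17a7, which excitatory neurons use, gave a difference of -0.13 ± 0.15 and was not called.

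Within control neurons 0 of 38 genes were called at either time, and 0 of all probe sets (0% at 2.5 h and 0% at 1 h, or 0.00322% and 0% with the block). At 2.5 h Cplx2 alone had an unadjusted p under 0.05, against 2.15% of all probe sets. Groups did not overlap for 3 of 38, Cplx2 (-0.41 ± 0.18), Rims2 (-0.11 ± 0.11) and Syt11 (-0.15 ± 0.09), all lower at 2.5 h, against 6.15% of all. At 1 h 0 of 38 had an unadjusted p under 0.05, against 2.71%, and 0 did not overlap, against 7.07%. The interval of every one of the 38 genes at 1 h, and of all but Cplx2 at 2.5 h, lay within 1.5-fold.

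Before 4OHT was added, 0 of 38 genes were called between MEF2-VP16-ER and control neurons, and 0% of all probe sets (0.00322% with the block). Unadjusted p was under 0.05 for Snap91 (0.16 ± 0.06) and Syt7 (-0.23 ± 0.09), 2 of 38 against 8.81% of all probe sets. Groups did not overlap for 7 of 38, against 17.4% of all: the 38 gave 18.4%, near that background. Syt1 (0.31 ± 0.19), Syt5 (0.12 ± 0.08), Sv2a (0.13 ± 0.11) and Snap91 were higher with MEF2-VP16-ER on all 3 arrays, and Syt7, Syt11 (-0.18 ± 0.09) and Vamp1 (-0.16 ± 0.08) were lower. These 0 h differences enter each induction with the opposite sign, since the 0 h arrays are subtracted.

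The clearest differences among the 38 genes were between replicate numbers, which run through all 6 groups. With group held fixed, 17 of 38 genes differed by replicate number (44.7%), against 29.6% of all probe sets in the same limma F test. Of the 17, 16 were lowest in replicate 3, 42.1% of the 38 against 13.2% of all probe sets, and 0 were highest in it, against 13.4% of all. Replicate 3 was the lowest array in all 6 groups for 13 genes, 34.2% against 6.19%. All 17 lay among the 28 genes above the median intensity, of which they were 60.7%. Of all probe sets above that level 47.3% differed by replicate number, and 20.2% did so with replicate 3 lowest, against 57.1% of the 28. The 16 and 0 became 19 and 0 after quantile normalization, and 16 and 1 (Snap91) with each array centred on its median, a setting added after the values were seen. Without replicate 3 only 2 of 38 genes differed, Sv2b and Slc17a6, and 1736 probe sets in place of 9200, so the count rests on that set of arrays. Without replicate 1 there were 15 genes and without replicate 2 there were 17.

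Slc17a6 had the smallest adjusted p (1.64e-06), with a mean of 1590 ± 73 in replicate 1, 1373 ± 68.7 in replicate 2 and 1136 ± 67.3 in replicate 3 (SD over 6 groups, n = 6). Sv2b had the largest difference, -0.51 log2 units between replicates 3 and 1, with means of 6688 ± 505, 5350 ± 301 and 4697 ± 186. These were also the genes that differed between replicates 1 and 2 alone. Replicate 3 was below replicate 1 by less, for Bsn (-0.36), Cplx2 (-0.36), Rab3b (-0.36), Syn2 (-0.34), Napa (-0.33) and Slc17a7 (-0.32). The differences were smaller still for Dnm1 (-0.25), Syt4 (-0.23), Napb (-0.22), Vamp2 (-0.19), Syn1 (-0.16), Syp (-0.16), Snap25 (-0.16) and Syt5 (-0.11). Cplx1 was the exception, lower in replicate 1 than in the other two, with a difference of 0.16 between replicates 3 and 1 (adjusted p = 0.0112). By role, the called genes were 4 of 7 SNARE genes, 4 of 8 vesicle protein genes, both glutamate transporters, both complexins, 2 of 6 synaptotagmins, and 1 each of the active zone, Rab3 and endocytosis genes. Converted back from the log2 scale to ratios of intensity + 16, replicate 3 was 0.704 times replicate 1 for Sv2b and 0.929 times for Syt5. These were the ends of the range of the 16 genes lowest in replicate 3.

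Other probe sets of the same genes did not always share the difference. Of the 17 genes 8 had further probe sets, 10 in all, and 2 of these were called, for Syn1 (-0.08 between replicates 3 and 1) and Sv2b (-0.42). The other 8 were not called. Their differences were -0.25 and 0.04 for the 2 of Syn2, -0.22 for Slc17a7, -0.21 for Syt4, -0.11 for Sv2b, -0.01 for Bsn and 0.06 for Vamp2. The further set of Cplx1 gave 0.16, like the one chosen for that gene. As a share of a gene's variation over the 18 arrays, replicate number held a median of 54.5% for the 28 genes above the median intensity, against 34.3% for all probe sets at that level. Group held 19.9% for these genes, against 23.5%. Over all 38 genes the share held by group ran from 1.6% (Napa) to 59.1% (Snap91) and that held by replicate number from 3.4% (Syt11) to 89.7% (Slc17a6). Replicate number held more than group for 24 of the 38, 63.2% against 43.2% of all probe sets. Above the median intensity the gap was smaller, 67.9% of the 28 genes against 57.3% of all probe sets at that level.

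**Figure D3:**
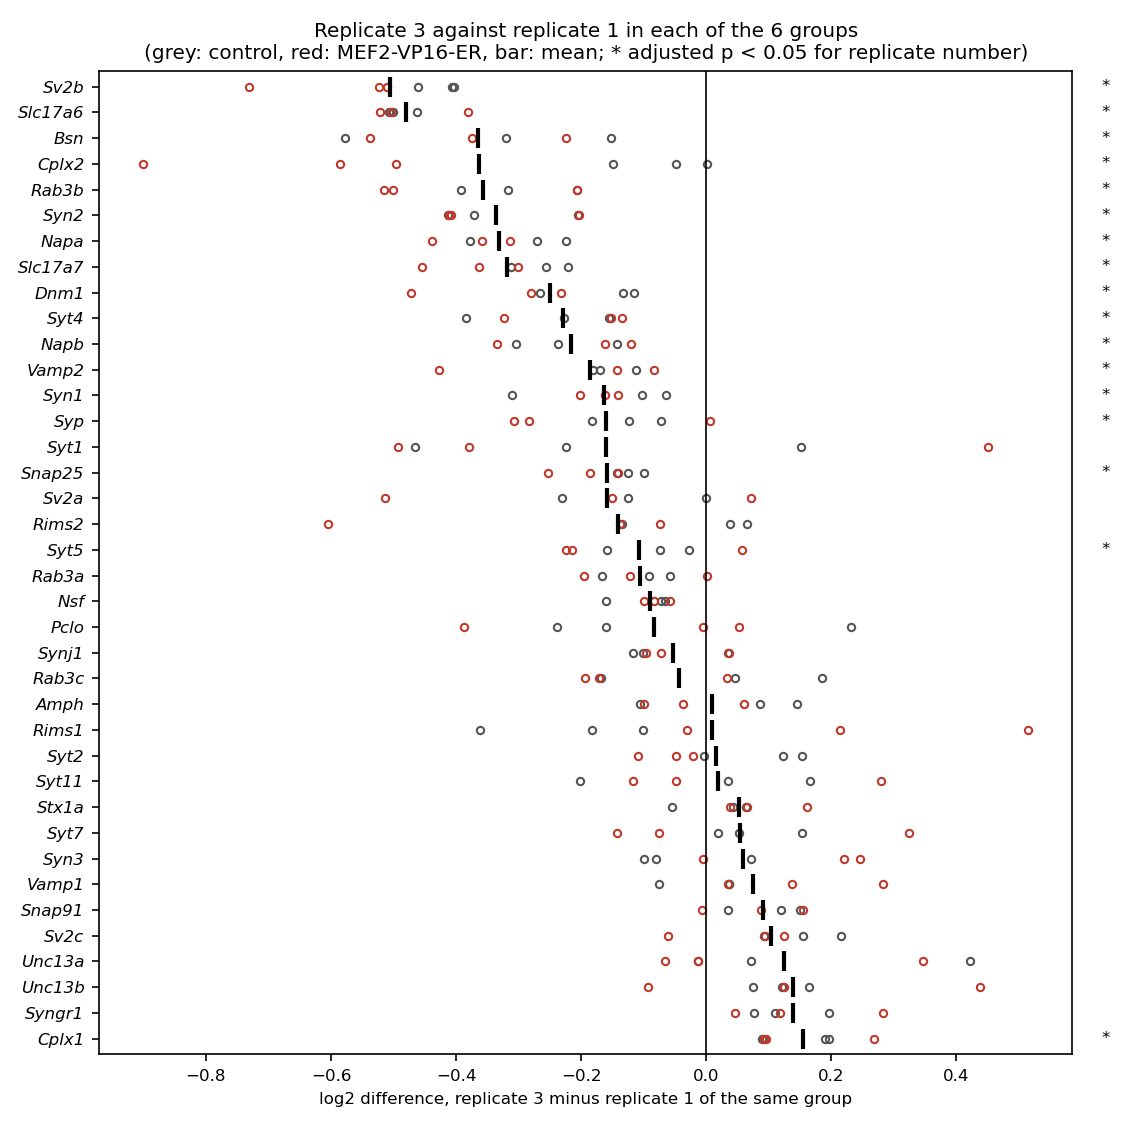
Difference in log2(intensity + 16) between replicate 3 and replicate 1 of the same group, for the 38 genes in order of their mean (black bar); each circle is 1 of the 6 groups (grey control, red MEF2-VP16-ER), and an asterisk marks an adjusted p under 0.05 for replicate number. All 6 circles lie below 0 for Sv2b and Slc17a6 and all 6 lie above 0 for Cplx1.

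Markers of cell types differed by replicate number in the same arrays, and their part in the replicate result was not tested. The summed intensity of the 9 astrocyte markers was 51710 to 59350 in replicate 1, 41670 to 44360 in replicate 2 and 44130 to 46930 in replicate 3. Of the 9, 8 were called, 1 of them lowest in replicate 3, 3 highest and 4 between. The differences between replicates 3 and 1 ran from -1.41 log2 units (Gfap) to 0.85 (Aldh1l1), with a median of -0.12. The 9 inhibitory neuron markers summed to 6876 to 7662, 5671 to 6528 and 5410 to 6271 (3 of 9 called, 2 of them lowest in replicate 3), with 8 of 9 below 0 between replicates 3 and 1 and a median of -0.13. The 8 oligodendrocyte markers summed to 7230 to 8549, 6938 to 8541 and 9457 to 11920, with 4 of 8 called and all 4 highest in replicate 3. Fibroblast markers summed to 3689 to 5635, 3932 to 6166 and 5992 to 8107 (3 of 8 called). Of these Dcn (-0.73) and Fn1 (-0.80) were lowest in replicate 3, and Pdgfra (1.80), which precursors of oligodendrocytes also express, was highest. The median of the 8 was -0.08, with 6 of 8 below 0. Microglial markers summed to 1348 to 1611, 1238 to 1403 and 1107 to 1247 (5 of 10 called, all 5 lowest in replicate 3), and endothelial markers to 686.4 to 752.7, 730.7 to 821.9 and 706.6 to 762.3 (0 of 7 called). General neuronal markers summed to 67880 to 73940, 71210 to 79570 and 71400 to 77310 (5 of 10 called, 3 lowest in replicate 3 and 2 highest). Gene by gene, 7 of the 10 were below 0 between replicates 3 and 1, with a median of -0.02, although the sums were higher in replicate 3. Of the 7 excitatory neuron markers 6 were called, and the 7 summed to 10840 to 13870, 11360 to 15570 and 8705 to 14250, with 2 called genes lowest in replicate 3, 2 highest and 2 between. Between replicates 3 and 1 the differences of Nrgn and Camk2a were -1.15 and -0.35, those of the other 5 were above 0, and the median was 0.10. No marker was listed at 0, since the lowest value in the table was 18.97. In RNA from a whole culture, fewer cells of a type and less RNA per cell cannot be told apart.

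Single arrays stood out as well. Replicate 1 of MEF2-VP16-ER at 1 h held the lowest value of 7 of the 38 genes, Syt1 and Unc13b among them, and the highest of 6, including Cplx2 and Vamp2. The median distance of the 38 genes from their fitted values was 0.11 log2 units on that array, against 0.07 for all probe sets. That distance was not particular to it. Replicate 3 of control neurons at 2.5 h also gave 0.11 against 0.07, and replicate 3 of MEF2-VP16-ER at 1 h and at 2.5 h gave 0.11 against 0.06. The share of all probe sets with their lowest or highest value on a given array is not given here. Replicate 3 of MEF2-VP16-ER at 1 h held the lowest value of 9 genes, replicate 3 of control neurons at 2.5 h that of 7, and replicate 2 of MEF2-VP16-ER at 0 h the highest value of 9. The ratio of the highest to the lowest of the 18 arrays had a median of 1.39 over the 38 genes and was under 1.5 for 25 of them (65.8%), against 72.9% of all probe sets. Above the median intensity the order was the reverse, 71.4% of the 28 genes against 64.9% of all probe sets at that level.

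**Figure D4:**
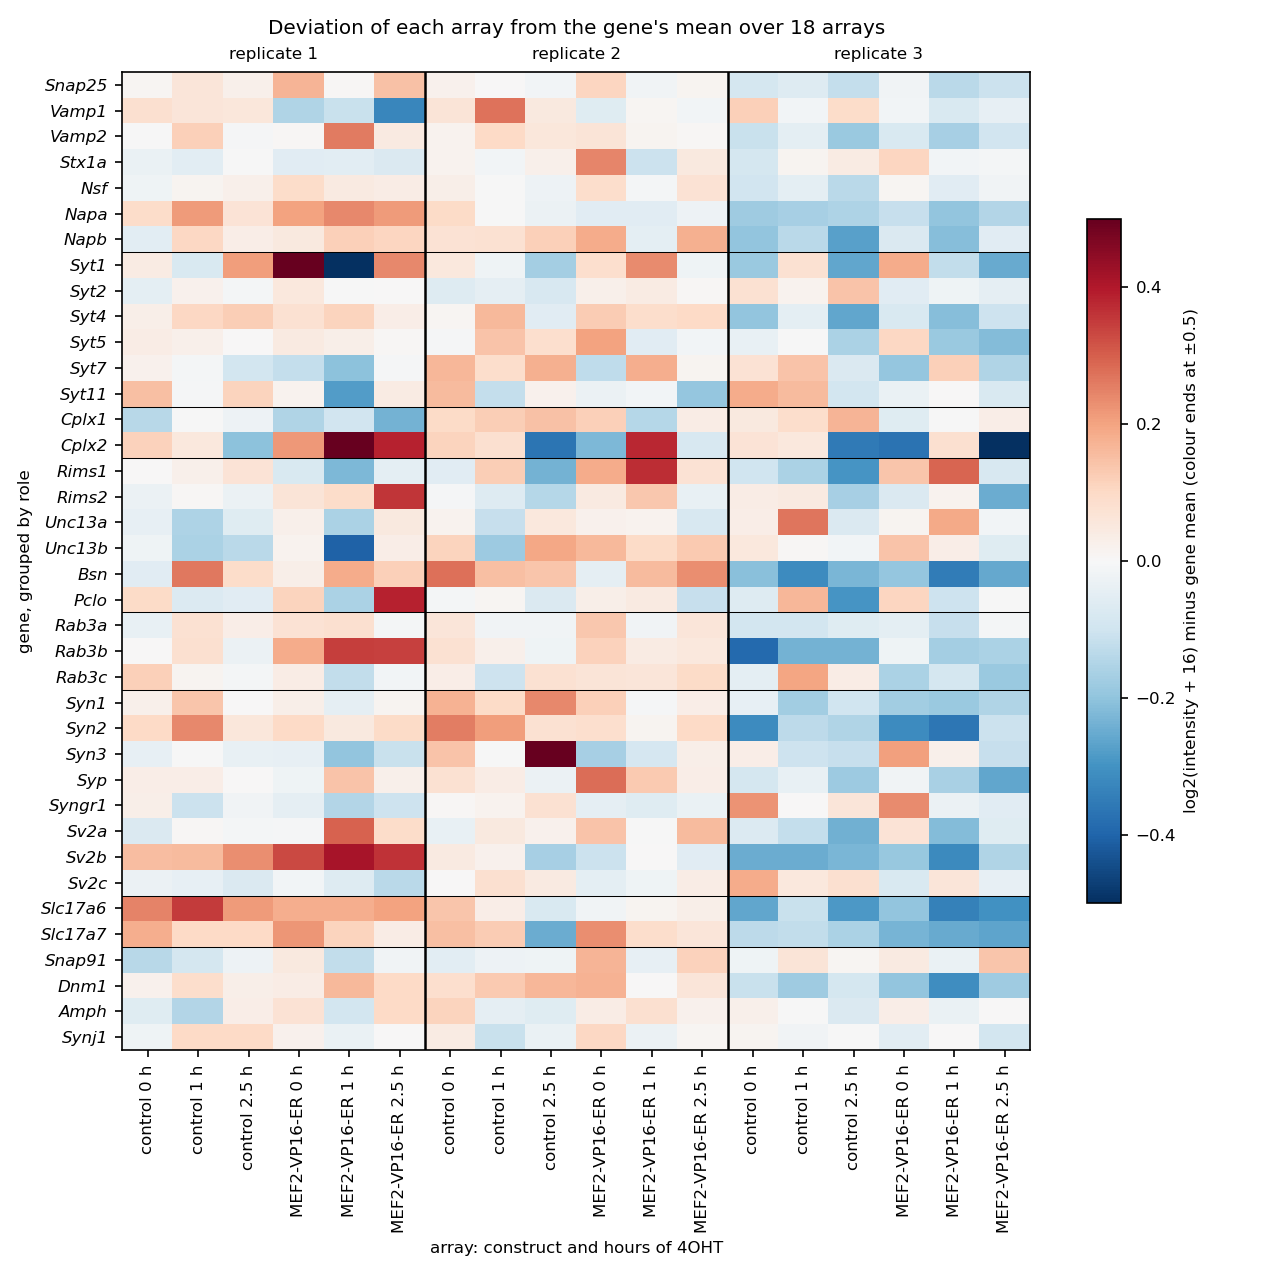
Each cell is the log2(intensity + 16) of 1 gene (rows, by role) on 1 array (columns, by replicate number, construct and hours of 4OHT) minus that gene's mean over the 18 arrays; red is above and blue below, and the colour ends at 0.5. Blue cells gather in the columns of replicate 3 for the SNARE adaptors, Syn2, Sv2b and the glutamate transporters, and the replicate 1 column of MEF2-VP16-ER at 1 h mixes the lowest values of Syt1 and Unc13b with the highest of Cplx2.

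The wider vesicle cycle was read from a separate list of 92 genes, of which 77 were measured: further synaptotagmins, syntaxins, Munc18, SNAP and complexin genes, the proton pump that energises filling, and coat and recycling proteins. In each of the 7 comparisons 0 of 77 were called, without or with the block. At 2.5 h 4 of 77 (5.19%) had an unadjusted p under 0.05 in induction, near the 4.78% of all probe sets. Their estimates were 2 above 0 and 2 below, in Syt10 (0.24 ± 0.11), Sh3gl1, an endophilin gene (0.25 ± 0.11), Syt13 (-0.32 ± 0.13) and the proton pump gene Atp6v1b2 (-0.17 ± 0.08). The median of the 77 was -0.01, beside -0.02 for the 38. By replicate number 26 of 77 differed, 33.8% against 29.6% of all probe sets, 20 of them lowest in replicate 3 and 6 highest. Of all probe sets 13.2% differed with replicate 3 lowest and 13.4% with it highest.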

How the data were processed

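Intensities of Affymetrix probe sets were used as deposited, on a linear scale; what normalization the authors gave the deposited intensity values is something not given in the sources used here. Probe sets were named from the platform annotation: of 31042 after 57 control sets were left out, 20826 had 1 symbol, 436 several and 9780 none. Differences were tested in R 4.3.3 with limma 3.58.1 on log2(intensity + 16), with a mean per group over all 18 arrays, eBayes and Benjamini-Hochberg adjustment over all probe sets, and the procedure was tested on simulated data. No detection call was used, and 3 arrays a group limit the precision. Arrays with the same replicate number deviated together (correlation over 0.1 in 44 of 45 pairs, lowest 0.07, highest 0.79), which pairs the groups by number except MEF2-VP16-ER at 0 h and 1 h, and a block on that number was the alternative. Other alternatives were the normalization, the added constant, filters, the groups fitted and leaving out arrays. Every array's value is given for the 4 highest and 4 lowest estimates in induction at 2.5 h, for 8 well known genes of the list, and for Slc17a6, chosen after its values were seen. The 38 genes, the lists and the tests were chosen with earlier results of these data known. The MEF2 site was searched by its consensus, on both strands, in Python 3.11.15. Figures were drawn with matplotlib 3.10.9.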

Additional observations from a re-analysis of the deposited data

How the results depend on the processing

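Of 154 recomputed counts of called genes among the 38, 153 were equal to the main count or within 1.5-fold of it. In the 7 comparisons every recomputed count was 0, as in the main fit. The exception was in the count that differed by replicate number, 17 of 38, which was 2 without replicate 3. That count was 15 without replicate 1, 17 without replicate 2 and 21 after quantile normalization. With the replicate block the count of called genes stayed at 0 of 38 in all 7 comparisons. The block raised the probe sets called in induction at 2.5 h from 55 to 291, and in MEF2-VP16-ER neurons from 245 to 724 at 2.5 h. At 1 h, where the numbers did not pair every sample, it raised them from 1 to 9 in induction and from 11 to 58 within MEF2-VP16-ER neurons. In control neurons at 2.5 h, and between the constructs at 0 h, it gave 1 in place of 0. Probe sets called in induction at 2.5 h numbered 32 with only the groups compared and 5 without replicate 2. The constructs at 2.5 h alone, where the 0 h arrays are not subtracted, gave 397. In induction at 1 h the probe sets called ranged from 0 to 19, the highest with the constructs at 1 h alone. In MEF2-VP16-ER neurons they were 75 at 2.5 h and 4 at 1 h with only the groups compared, 52 at 2.5 h without replicate 2 and 1 at 1 h without replicate 1.

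Differences of single genes were recomputed for Cplx2, Syt7, Pclo, Rims2, Syt1, Syt5, Stx1a, Syn3, Syn1, Syp, Syt4, Snap25, Vamp2 and Slc17a7 only. Those of the other genes among the 38, such as Slc17a6, Bsn, Sv2b and Snap91, were not assessed for changes of sign. Of the 1932 recomputed differences, none called in any setting, 15 changed sign by more than their standard error. A comparison of the constructs at 2.5 h or 1 h alone does not subtract the 0 h arrays. It therefore differs from the induction by the 0 h difference between the constructs, 0.31 for Syt1, -0.23 for Syt7 and 0.11 for Snap25. For the other changes of sign the cause was not tested. With the constructs compared at 2.5 h alone Syt7 was -0.0525, Syt1 0.0611 and Snap25 0.0528, and at 1 h alone Syt7 was -0.0431. With arrays left out, induction at 2.5 h ranged from -0.0418 (without replicate 1 of MEF2-VP16-ER at 2.5 h) to 0.261 for Rims2 and from -0.296 to 0.0553 (without replicate 2 of control neurons at 2.5 h) for Syn3. From 0 to 2.5 h in MEF2-VP16-ER neurons the differences ranged from -0.173 to 0.277 for Cplx2, from -0.140 to 0.110 for Pclo and from -0.156 to 0.147 for Rims2, the lowest of each without replicate 1 of the 2.5 h group. From 0 to 1 h they ranged from -0.0753 (without replicate 1 of the 1 h group) to 0.138 for Vamp2. In control neurons from 0 to 2.5 h they ranged from -0.121 (without replicate 2 of the 2.5 h group) to 0.230 for Syn3. In induction at 1 h 2 genes among the 38 had an unadjusted p under 0.05, 0 after quantile normalization and 5 with the replicate block. With the block that is 13.2% of the 38 against 8.41% of all probe sets, which were 4.7% without it. Between the constructs at 0 h there were 2 genes, 3 after quantile normalization and 7 with the block. There the block gave 18.4% of the 38 against 14.5% of all probe sets, which were 8.81% without it. Centring the arrays on their medians in the test of replicate number was chosen after seeing the data. Dim probe sets such as those of Sv2c and Syt2 have no detection call behind them, and a real change may read as a smaller one there.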
